A study of Caenorhabditis elegans with 3 samples.

Results

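Among the 4548 reproducible binding regions of the nuclear receptor NHR-25 in Caenorhabditis elegans L2 larvae, 541 were autosomal sites far out in the sequence between genes. Each had its summit, the base of highest signal, outside every protein-coding gene and over 2000 bp from every protein-coding transcript start. They made up 14.9% of the 3629 autosomal regions, with 98 on chromosome I, 118 on II, 97 on III, 130 on IV and 98 on V. The 541 sites lay in 534 distinct regions, because 14 of them shared a region with another distal site. Sites that share a region are not independent of each other.

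Chromatin immunoprecipitation and sequencing was carried out on whole worms of strain OP33 in 3 biological replicates, which form a single group. All 3 carried unc-119(ed3) III and the integrated transgene wgIs33, which adds a GFP-FLAG tag to the C-terminus of NHR-25, and all were pooled males and females of unstated age in hours. The labels do not say which promoter drives the transgene, and in whole larvae the tissues in which a site was bound cannot be told apart. The deposited lists hold regions without read numbers, which leaves sequencing depth unknown.

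NHR-25 is the worm relative of fly FTZ-F1 and mammalian SF-1, nuclear receptors that bind DNA as monomers at an extended half-site, CAAGGTCA. The worm protein acts in epidermal cells, including the seam and the vulval precursors, and in the molts. Most worm genes lie close together, so sequence beyond the reach of any promoter is scarce. Enhancers in such stretches can act on either flanking gene or on a gene farther away, and a nearest gene is therefore a position and not a target.

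The sequences shown are those of 5 of the 6 distal summits with the half-site and those of 4 of the 5 strongest distal sites found in all 3 replicates. The half-site summit near Y37E3.30 and the strongest distal site, near Y48G8AR.8, are described further on without sequence. Each runs from 50 bases before to 50 after a summit, on the plus strand of ce11 and credited to RefSeq. The first 5 hold the half-site, in capitals, and on the strand that reads CAAGGTCA it was preceded by T in 4 of them and by C in the last. The site between snt-1 and egl-27 has the highest signal of the 6.

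snt-1 to egl-27, chrII:6821339-6821439: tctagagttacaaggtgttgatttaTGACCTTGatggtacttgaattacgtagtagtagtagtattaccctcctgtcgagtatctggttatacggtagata
ltd-1 to sre-2, chrII:8099384-8099484: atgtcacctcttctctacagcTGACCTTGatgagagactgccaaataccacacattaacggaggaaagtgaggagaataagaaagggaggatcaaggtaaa
Y69E1A.8 to Y43E12A.2, chrIV:10971977-10972077: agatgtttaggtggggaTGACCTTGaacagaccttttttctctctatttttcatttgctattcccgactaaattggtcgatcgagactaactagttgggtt
Y56A3A.33 to brp-1, chrIII:12009973-12010073: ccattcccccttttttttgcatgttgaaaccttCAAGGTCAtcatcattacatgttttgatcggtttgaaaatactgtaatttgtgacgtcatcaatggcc
ctsa-3.2 to C08H9.15, chrII:9878677-9878777: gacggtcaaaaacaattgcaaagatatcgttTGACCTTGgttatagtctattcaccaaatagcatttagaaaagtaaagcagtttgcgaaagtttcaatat

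The next 4 are those of highest signal after the site near Y48G8AR.8, and none of them holds the half-site. Capitals mark the GA repeat GAGAGA, the E-box CACGTG, the word GACGCA and the GATA motif TGATAA on either strand. The first holds the GA repeat and the word GACGCA more than once each, beside the E-box. The site between gdh-1 and tgt-1 and the site at tpra-1 hold the E-box. The site between irld-18 and dmd-6 holds the GATA motif alone among the motifs searched.

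T04C4.3 to fnip-2, chrIV:2219580-2219680: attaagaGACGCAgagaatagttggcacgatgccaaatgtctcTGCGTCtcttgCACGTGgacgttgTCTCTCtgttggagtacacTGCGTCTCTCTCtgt
gdh-1 to tgt-1, chrIV:11956448-11956548: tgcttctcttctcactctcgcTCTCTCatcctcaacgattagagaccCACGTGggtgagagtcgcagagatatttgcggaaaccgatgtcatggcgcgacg
D1046.4 to tpra-1, chrIV:8949809-8949909: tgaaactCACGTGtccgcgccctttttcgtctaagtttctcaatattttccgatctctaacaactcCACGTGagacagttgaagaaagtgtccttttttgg
irld-18 to dmd-6, chrIV:14594360-14594460: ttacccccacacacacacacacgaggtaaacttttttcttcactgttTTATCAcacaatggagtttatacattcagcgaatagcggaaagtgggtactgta

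Distal sites recurred as often as other autosomal sites. Each replicate's own list was cut to its 4548 regions of highest signal, as many as the reproducible list holds, and a site was supported where it overlapped one of these. Of the 541 sites, 296 were supported in all 3 replicates, which is 54.7% (95% Wilson interval 50.5 to 58.9), beside 55.1% of all autosomal regions and 55.0% of the whole list. A further 150 were supported in 2 replicates, 87 in 1 and 8 in none. The reproducible list was itself made from these replicates, so support describes how evenly a site was seen and is not an independent test of it.

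Replicates 1, 2 and 3 supported 78.9%, 78.2% and 78.6% of the distal sites, or 78.6% ± 0.370 (SD, n = 3). Other autosomal sites were supported at 78.1% ± 2.54. The difference was -2.13, 1.80 and 1.58 percentage points in the 3 replicates, with a mean of 0.417 (exact sign-flip permutation test, two-sided, p = 1.0; with 3 replicates the smallest possible p is 0.25). Sites within 2000 bp of a start recurred in all 3 replicates at 55.4%, those in gene bodies farther from any start at 52.5%, and distal sites of the X chromosome at 56.9%.

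Recurrence followed the signal, which is the authors' own score for a region and serves here only to rank and describe. In 5 equal classes of the autosomal regions by signal, from the highest to the lowest, 99.1%, 95.7%, 58.5%, 19.5% and 6.67% of distal sites were supported in all 3 replicates. For other autosomal sites the shares were 99.7%, 93.2%, 57.5%, 18.1% and 6.44%. In none of the 5 classes did the 2 kinds of site stand apart beyond the counting error of the distal sites. The 8 sites supported by no replicate had signals of 107 to 128 and ranks of 4558 to 12592 in the replicates' lists.

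**Figure D1:**
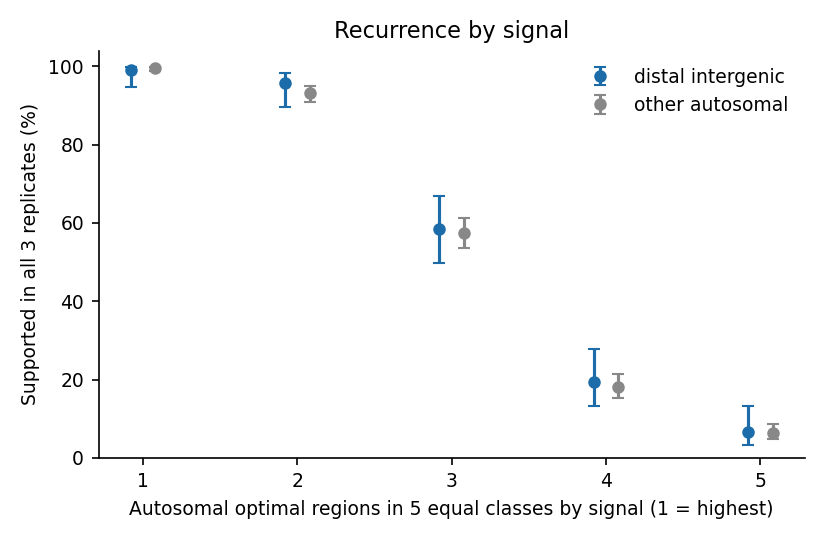
Share of regions supported in all 3 replicates (vertical axis, percent) in 5 equal classes of autosomal optimal regions by signal (horizontal axis), for distal intergenic and other autosomal sites, with 95% Wilson intervals of the counts. Both fall together, from 99.1% and 99.7% in the strongest class to 6.67% and 6.44% in the last.

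The authors' score of distal sites ranged from 107 to 1130 with a median of 179. Autosomal sites within 2000 bp of a start had a median of 184 and reached 2859, and those far inside gene bodies had a median of 169 and reached 1430. The medians lay close together, and the highest scores were found outside the distal sites. Of the distal regions, 300 had a width of exactly 390 bp, and widths ran from 98 to 1067 bp. The bases within 50 bp of a distal summit had a median GC content of 41.6%, against 34.5% for all eligible sequence, that is, all autosomal sequence that meets the distance rule.

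**Figure D2:**
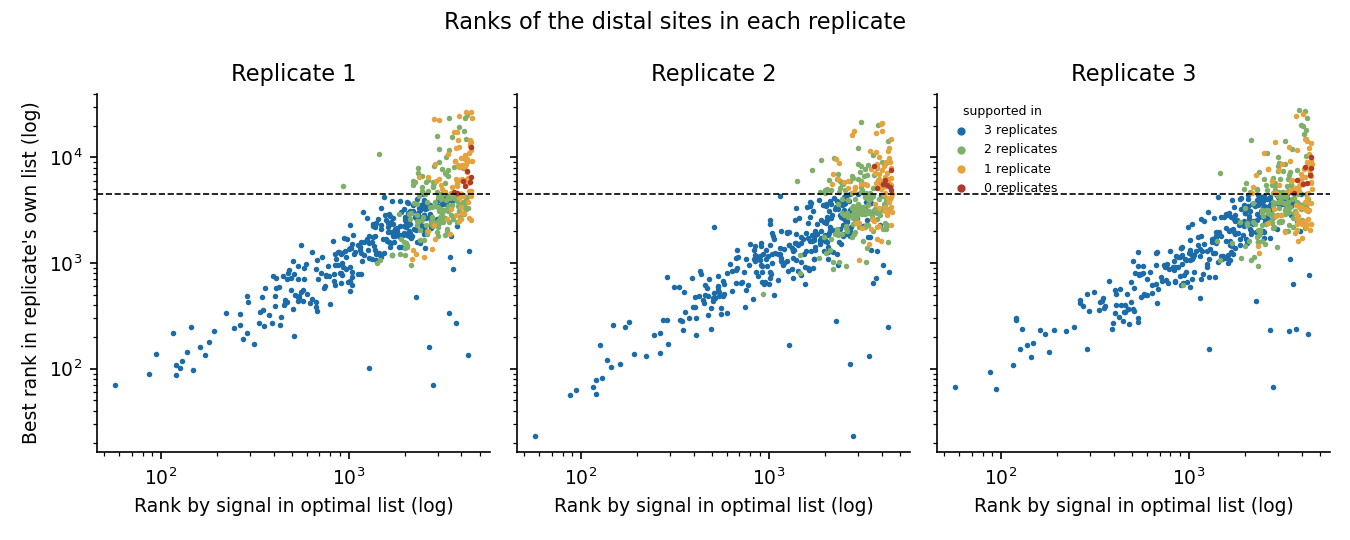
Rank of each distal site by signal in the reproducible list (horizontal, log axis) against the best rank of an overlapping region in each replicate's own list (vertical, log axis), coloured by the number of supporting replicates, with a dashed line at rank 4548. Strong sites lie close to a line in all 3 replicates, weak ones spread across the dashed line, and the points far below the rest take the rank of an overlapping region that ranks far higher; 536 of 541 sites had an overlapping region in each replicate, and the others are not drawn.

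The strongest distal site lay on chromosome I at 1273961, 928 bp past the end of Y48G8AR.8, with a signal of 1130 and ranks of 70, 23 and 67 in replicates 1, 2 and 3. The site between T04C4.3 and fnip-2 had a signal of 987 and ranks of 90, 56 and 93. The site between gdh-1, which encodes glutamate dehydrogenase, and tgt-1, which encodes a tRNA-guanine transglycosylase, had a signal of 965 and ranks of 137, 63 and 64. All 3 stood near the top of every replicate's list, and the last of them lay inside the non-coding RNA gene ZK829.13.

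Some of the next sites, named here out of the order of signal, lay beside transcription factor genes. How often such genes flank strong sites was not compared with other sites. The site 2583 bp upstream of nhr-88, a nuclear receptor gene, had a signal of 831 and ranks of 88, 78 and 286. The site 4338 bp upstream of atf-2, a bZIP factor gene, and 398 bp past mak-1, a MAPK-activated protein kinase gene, had a signal of 826 and ranks of 102, 168 and 152. A weaker summit of 271 lies in the same region there and takes the same ranks, so the pair is not independent. The site 11193 bp upstream of the nuclear receptor gene nhr-4 lay nearer to K07F5.15, 1987 bp past its end. It had a signal of 774 and ranks of 247, 103 and 130.

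The site 2357 bp upstream of din-1, which encodes a corepressor partner of the receptor DAF-12, had a signal of 735 and ranks of 159, 111 and 231. The site 2840 bp upstream of the Krüppel-like factor gene klf-1 had a signal of 706 and ranks of 177, 275 and 144. The site 2825 bp upstream of chd-7, which encodes a chromodomain helicase, had a signal of 714 and ranks of 134, 247 and 213, and it lay inside the long non-coding RNA gene linc-91. None of these sites ranked beyond 300 in any replicate. The remaining sites of the 15 strongest recurrent ones lay beside tpra-1, irld-18, F22B7.9 and dpy-19, sgn-1 and F07H5.13, F54F12.1, and srbc-2 and T20D4.15, with signals of 848, 836, 807, 788, 764 and 691. Of the 15, 9 had GAGAGA within 50 bp of the summit, 4 had CACGTG, 2 had GACGCA and none had the half-site. Over all 541 distal sites the shares were 30.5%, 5.55%, 11.1% and 1.11%. The counts of GACGCA and of the half-site lie near these shares and say nothing about the 15. The other motifs searched were not counted among them.

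The density of distal sites was close to that of sites over the autosomes as a whole. Eligible sequence covered 12622150 bp, or 15.3% of the autosomes, and held 42.9 sites per Mb, beside 44.0 per Mb over all autosomal sequence. Sequence within 2000 bp of a start held 51.5 per Mb, and gene bodies farther away held 18.0. In the replicates' own strongest regions, 515, 526 and 529 were distal, which was 14.2%, 14.5% and 14.7% of the autosomal ones. The mean of 14.5% ± 0.252 (SD, n = 3) lay below the 15.3% of sequence in all 3 replicates (exact sign-flip permutation test, two-sided, p = 0.25, the smallest possible).

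Chromosomes differed. Per Mb of eligible sequence there were 54.0 distal sites on II, 52.7 on I and 50.6 on III, but 36.7 on IV and 31.4 on V; the X held 52.1. In the replicates' own lists the densities were 51.7 ± 1.21 on II, 47.8 ± 2.84 on I and 51.7 ± 0.522 on III. Chromosome I lay below II and III in every replicate, but between them in the reproducible list. Chromosomes II and III kept no single order over the replicates. The densities were 36.8 ± 2.78 on IV and 29.5 ± 1.16 on V (SD, n = 3), each below the other 3 autosomes in every replicate. All reproducible regions together, over the whole chromosome, lay at 49.2, 46.1, 54.7, 39.3 and 35.4 per Mb on I to V, so IV and V were lowest there too. Along the chromosomes, the central 50% of the length held 324 sites at 57.3 per Mb and the outer parts 217 sites at 31.1 per Mb.

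Density fell with distance from the nearest start. The median distance was 3274 bp and the greatest 16630 bp. There were 54.8 sites per Mb between 2000 and 3000 bp, 43.1 between 3000 and 4000 bp, 37.0 up to 6000 bp, 31.8 up to 10000 bp and 26.7 beyond, where 19 sites lay. Recurrence in all 3 replicates showed no steady order over the same classes, at 57.1%, 58.0%, 52.3%, 41.3% and 63.2%. The sites just inside the limit lay near C25H3.1 at 2003 bp, C01A2.2 at 2005, plc-3 at 2007, C17G10.7 at 2016 and bli-4 at 2018 bp, with signals of 152, 163, 180, 182 and 305. Those just outside lay near soc-1 at 2000 bp, cyp-14A5 at 1999, hif-1 at 1996, pqn-83 at 1995 and pry-1 at 1989 bp, with signals of 133, 381, 580, 119 and 119.

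Pseudogenes and repeats held few of the sites. Inside pseudogenes, which are disabled gene copies, lay 1 summit of 541, or 0.185% (interval 0.0326 to 1.04), against 12.9% of eligible bases. In the replicates' own distal sites the share was 0.388%, 0.190% and 0.378%. Within 500 bp of a pseudogene the share was 2.40% against 17.5%. Soft-masked bases, which mark repeats and low complexity, held 20.9% of distal summits against 42.1% of eligible bases, and 21.7% ± 1.58 in the replicates. In the replicates they held 22.2% ± 1.51 of autosomal summits within 2000 bp of a start. They held 26.8% ± 1.95 of those far inside gene bodies and 17.4% ± 1.71 of distal summits on the X. A share of this size was therefore not particular to autosomal distal sites. The part of read alignment in repeats and gene copies was not tested, since the lists hold no reads.

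Other non-coding genes lay near many sites. Leaving out piRNA genes and pseudogenes, 135 sites had such a gene within 500 bp, or 24.95% (interval 21.5 to 28.8), against 9.80% of eligible sequence. The replicates' own distal sites gave 22.9% to 23.3%, a mean of 23.1% ± 0.175 (SD, n = 3), above the share of sequence in 3 of 3 (exact sign-flip permutation test, two-sided, p = 0.25, the smallest possible). Of these sites, 48 had their summit inside the gene. The annotation class ncRNA, transcripts of no more specific class, accounted for 107 of the 135.

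Genes for tRNAs, snoRNAs and microRNAs lay near fewer sites, at 5.90, 5.66 and 5.17 times their shares of sequence, where ncRNA genes were at 2.60 and lincRNA genes at 2.43 times. Genes for tRNAs lay within 500 bp of 13 sites, or 2.40% against 0.407% of eligible sequence. Genes for snoRNAs, which guide RNA modification, lay near 11 sites, or 2.03% against 0.359%. MicroRNA genes lay near 12 sites, or 2.22% against 0.429%, and lincRNA genes near 17, or 3.14% against 1.29%. The lower ends of the 4 intervals were 1.41%, 1.14%, 1.27% and 1.97%, each above the share of sequence, and no replicate's own share fell to it. No distal site lay within 500 bp of an antisense RNA, snRNA or rRNA gene, which allows a share of up to 0.705%. Their shares of eligible sequence were 0.0972%, 0.175% and 0.191%, all below that limit, so these absences say nothing about the 3 classes.

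The microRNA sites with the highest signal lay near mir-228, mir-79 and mir-52. The site 402 bp from mir-228 had a signal of 503 and ranks of 273, 728 and 239 in replicates 1, 2 and 3, and lay between the convergent genes ari-2 and T12E12.6. The site 272 bp from mir-79 had a signal of 419 and ranks of 560, 483 and 806. The site 145 bp from mir-52 had a signal of 370 and ranks of 584, 819 and 951. All 3 sat well inside every replicate's strongest regions, and 7 of the 12 microRNA sites were supported in all 3 replicates. A second summit near mir-228 had a signal of 125, and mir-228 was the only microRNA gene with more than 1 site.

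Among the other classes, the strongest lincRNA sites lay inside linc-91, linc-128 and linc-148, with signals of 714, 520 and 318. The snoRNA sites of highest signal lay near C54G4.16, F37A8.7 and T19B4.8, with signals of 352, 328 and 251. The tRNA sites lay near F13G11.t1, B0350.t1 and T09B4.t1, with signals of 364, 279 and 239, and the last ranked 4250, 912 and 1114 in the replicates. Genes for piRNAs, which are packed along chromosome IV, lay within 500 bp of 44 sites, or 8.13% against 12.3% of eligible sequence, and 43 of the 44 were on IV.

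**Figure D3:**
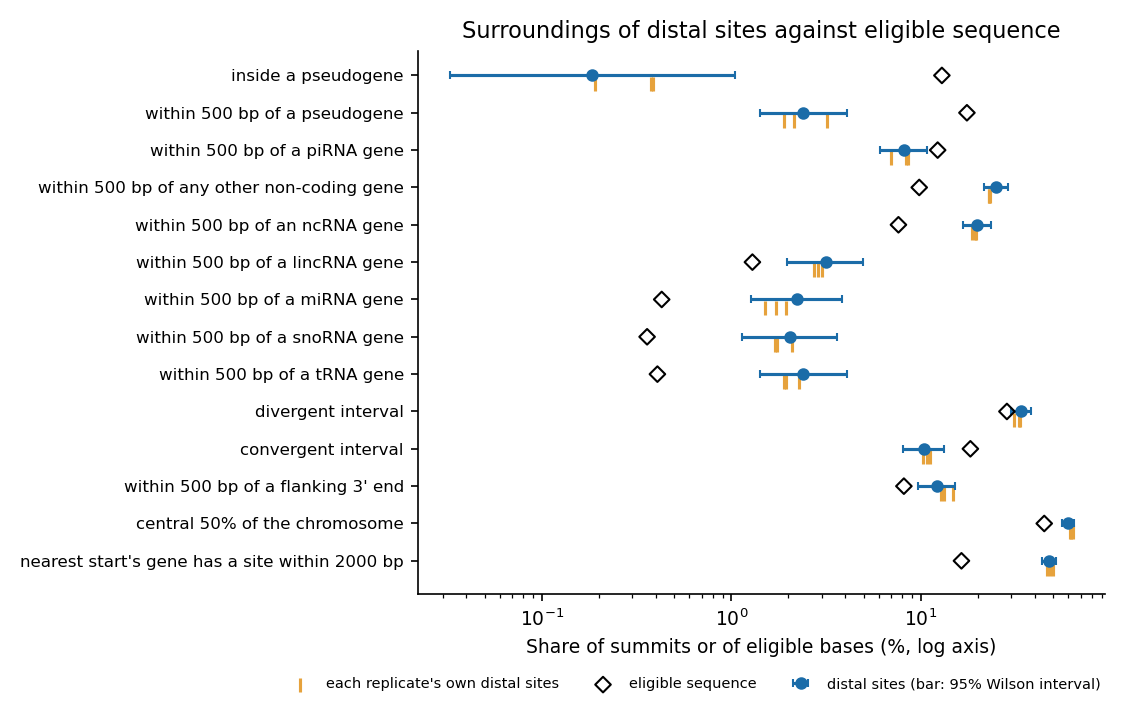
Share of distal summits with a feature (filled points, bars are 95% Wilson intervals), of each replicate's own distal summits (orange ticks) and of eligible bases (open diamonds), in percent on a log axis. The diamonds lie far to the right for pseudogenes (12.9% of bases, 0.185% of summits) and to the left for tRNA, snoRNA and microRNA genes.

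The layout of the flanking genes differed from that of the sequence at large. Intervals between divergent genes, which face away from each other, held 183 sites or 33.8%, against 28.5% of eligible sequence. Tandem intervals held 301 or 55.6% against 53.1%, and convergent intervals held 56 or 10.4% against 18.3%. In density this was 51.0, 44.9 and 24.3 sites per Mb. In the replicates the convergent share was 10.3%, 10.8% and 11.2%, below that of the sequence each time. A site lay upstream of its nearest start in 389 cases and past the gene in 152. The share of eligible sequence that lies upstream of its nearest start was not counted, so these counts have no background beside them.

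Distal sites gathered near genes that also had a site at their start. For 258 sites, or 47.7% (interval 43.5 to 51.9), the gene with the nearest start had another reproducible summit within 2000 bp of a start. Such genes were nearest for 16.4% of eligible sequence. The replicates' own distal sites gave 49.7%, 46.2% and 47.8% by the same set of genes, above that share in 3 of 3 (exact sign-flip permutation test, two-sided, p = 0.25, the smallest possible). The distal sites and the start sites come from the same libraries, and genes with long upstream sequence take part in both counts. Another reproducible summit of any kind lay within 1000 bp of 123 sites and within 5000 bp of 391.

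Sites were spread over 355 of the 3771 intervals with eligible sequence. Of these, 242 held 1 site, 71 held 2, and the most held 10. Intervals with a site had a median length of 6969 bp, against 4171.5 bp for eligible intervals without one. By runs of at least 3 distal summits no more than 5000 bp apart, 142 sites or 26.2% fell into 38 clusters. Of the clustered sites 88, or 62.0%, were supported in all 3 replicates, and of the 399 others 208, or 52.1%. The clustered sites also had the higher median signal, 189 against 177, and recurrence followed the signal. Some clustered summits lie in shared or overlapping regions and take the same ranks. Whether recurrence differs with clustering at equal signal was not tested. The replicates' own distal sites were clustered at 20.8% to 24.9%, or 22.9% ± 2.03 (SD, n = 3).

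The largest cluster held 10 sites over 11420 bp between snt-1, which encodes synaptotagmin, and egl-27, which encodes an MTA-family chromatin protein with roles in seam cells. From the snt-1 side to the egl-27 side the signals were 572, 311, 329, 190, 107, 195, 232, 266, 136 and 119. The first, which holds the half-site, lay 13619 bp upstream of egl-27 and ranked 219, 288 and 515 in the replicates. Signal was highest at the snt-1 end, and 6 of the 10 sites were supported in all 3 replicates. The weakest ranked 26969, 5459 and 2319. GAGAGA lay within 50 bp of 4 of the summits, and 5 lay within 500 bp of an ncRNA gene.

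The second cluster held 8 sites over 11827 bp between asp-13, an aspartyl protease gene, and ZC190.4. Its signals were 153, 140, 161, 115, 135, 140, 274 and 535, and 3 of the sites were supported in all 3 replicates. Here the last summit, nearest ZC190.4, stood well above the others. Clusters of 5 sites lay between F54F12.1 and Y39E4B.6 with signals of 764, 451, 210, 113 and 265, between irld-18 and dmd-6 with 121, 364, 220, 426 and 336, and between din-1 and ghi-1 with 735, 162, 167, 259 and 108. In each of these 3, 4 of the 5 sites were supported in all 3 replicates. Between din-1 and ghi-1, the summits of 735 and 162 lie in the same region and take the same ranks, so that pair is not independent. Another cluster of 5, between Y56A3A.33 and brp-1, had signals of 286, 189, 274, 310 and 145, with all 5 sites supported in all 3 replicates, and its first summit holds the half-site. A sixth site of the irld-18 to dmd-6 interval, with a signal of 836, stood 13371 bp upstream of irld-18 and outside the cluster; dmd-6 encodes a DM-domain transcription factor.

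**Figure D4:**
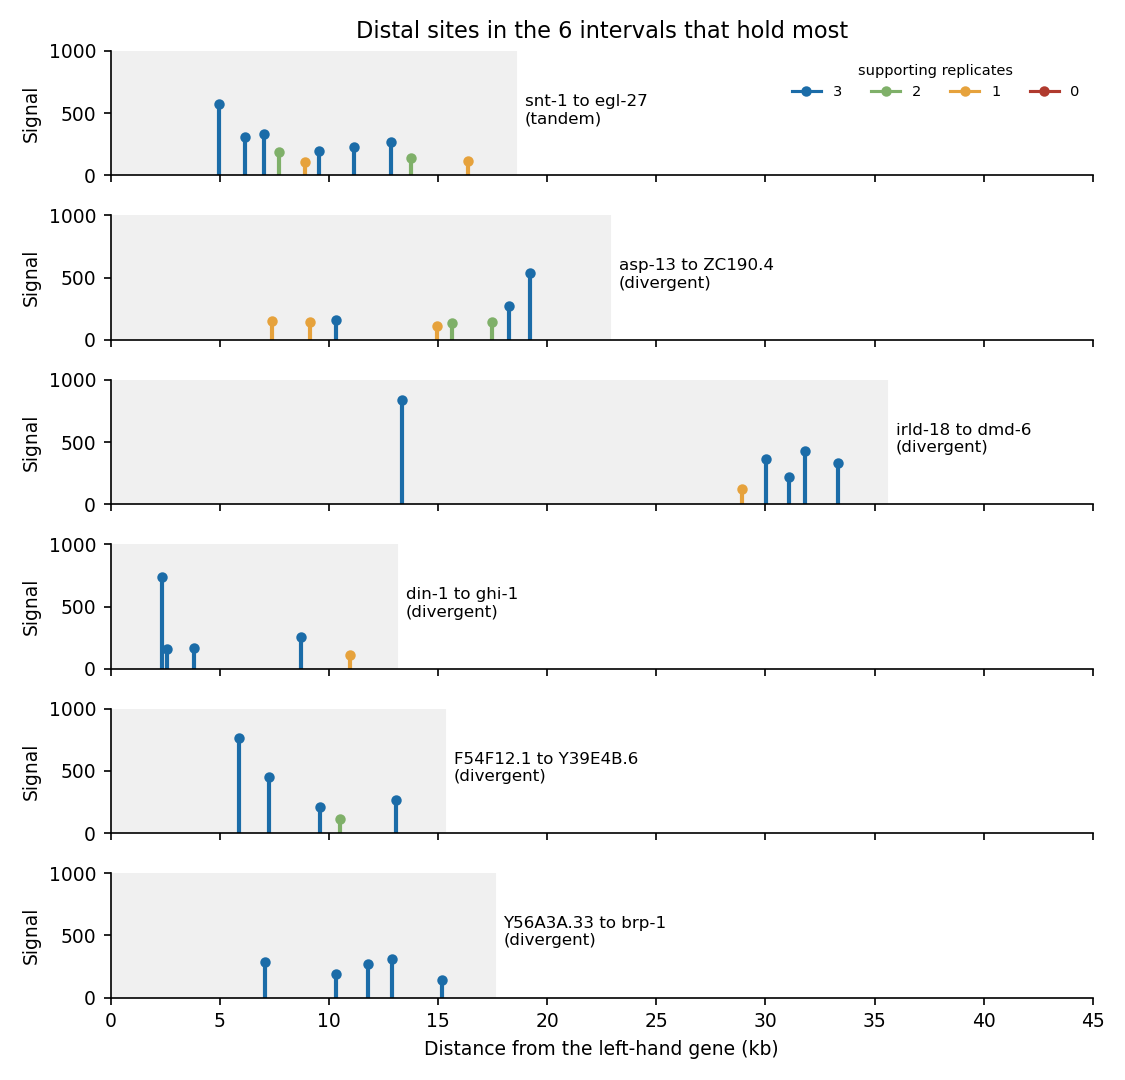
Signal of each distal site (vertical axis, the authors' score) against its distance from the left-hand gene (horizontal, kb) in the 6 intervals that hold most distal sites, coloured by the number of supporting replicates; the grey band is the interval. The 10 sites from snt-1 to egl-27 are strongest at the snt-1 end, and the site of 836 in the irld-18 to dmd-6 interval stands apart from the other 5.

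Several shorter intervals were also filled. Between cbl-1, a cystathionine lyase gene, and lin-41, a heterochronic gene that times larval cell fates, 4 sites lay in a convergent interval of 3871 bp, past the ends of both genes and around mir-79. Their signals were 419, 343, 244 and 134, and all 4 were supported in all 3 replicates, although the last 2 belong to overlapping regions. Between lpin-1, a lipin gene, and letm-1, 3 sites had signals of up to 526, and all 3 were supported in every replicate. In contrast, none of the 3 sites between T27E4.7 and the heat shock gene hsp-16.1 was supported in all 3, with signals of 113 to 122.

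Gene families differed in how often a member flanked a distal site. Of 6365 autosomal protein-coding genes next to eligible sequence, 686, or 10.8%, were the immediate neighbour of at least one distal site. The following counts stand beside that share, over lists chosen with earlier results known, and a share near 10.8% says nothing about a list. Longer intervals raise the chance of a site, so the number of sites per Mb of the list's own eligible sequence is given beside the overall 42.9.

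Nuclear receptor genes were flanked in 22 of 122 cases, or 18.0% (interval 12.2 to 25.8), with 75.8 sites per Mb. At 18 of the 22 a site lay off the start side. Besides nhr-88 and nhr-4, the strongest was the site 4644 bp upstream of nhr-20, with a signal of 592 and ranks of 332, 140 and 443. The interval of nhr-46 held 5 sites with signals of 128 to 433, of which 2 were supported in all 3 replicates. The site 2078 bp upstream of nhr-85, a receptor of the larval timing system, had a signal of 272 and ranks of 1329, 844 and 3051. A pair of sites between the divergent receptor genes nhr-31 and nhr-258 counts for both genes.

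Basic helix-loop-helix and bZIP genes were flanked in 11 of 30 cases, or 36.7% (interval 21.9 to 54.5), with 78.7 sites per Mb. Only 3 of the 11, among them atf-2 and fos-1, had a site off their start side. The site 3121 bp upstream of fos-1, which encodes a Fos protein, had a signal of 640 and ranks of 340, 133 and 226, and lay inside the ncRNA gene C10F3.15. A weaker summit of 136 lies in the same region and takes the same ranks. The pairs at atf-2 and at fos-1 each count as 2 of the 15 sites behind this density, although each pair lies in a single region. At hlh-30, a TFEB homologue, the site lay 36 bp past the end of the gene and had a signal of 121 with ranks of 19423, 4008 and 3620. That site stood far outside the strongest regions of replicate 1.

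Hedgehog-related genes, which encode secreted ligands and Patched-related receptors, were flanked in 9 of 30 cases, or 30.0% (interval 16.7 to 47.9), with 105 sites per Mb. All 9 had a site off the start side. The 13 sites include 2 of ptr-21 that lie in overlapping regions and take the same ranks. Signals were moderate: the sites of ptc-3, a Patched homologue, had 246 and 227, that of ptr-18 had 231, and the 3 of grl-8 had 201, 187 and 137. The site 2417 bp upstream of ptc-3 ranked 2456, 1304 and 2745 in the replicates, so all 3 supported it in the middle of their lists. Of the 9 genes, 4 had a site supported in all 3 replicates, beside 430 of the 686 flanked genes of all kinds.

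Of 13 epidermal and seam cell factors, 3 were flanked: egl-27, blmp-1 and myrf-1. The 3 sites upstream of blmp-1, a Blimp1-type repressor gene, had signals of 314, 288 and 149. The first ranked 667, 1157 and 2171 in the replicates. Both sites upstream of myrf-1, which drives molting and synaptic rewiring, were weak, with signals of 110 and 108 and support in 1 replicate each. Because 10 of the 15 sites belong to egl-27, the list's 166 sites per Mb describe that gene more than the others. Of the heterochronic genes 2 of 4 were flanked, lin-41 and lin-66, both off the end of the gene, with 259 sites per Mb that rest on 5 sites.

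Homeobox genes were flanked in 4 of 42 cases, or 9.52%, with 25.2 sites per Mb, and ceh-58 had the strongest at a signal of 340. Cuticle collagen genes were flanked in 3 of 36, or 8.33%, with 38.3 sites per Mb. T-box and forkhead genes had 1 of 19, fkh-7, with 10.7 sites per Mb. Wnt pathway genes had 1 of 14, pop-1, which encodes the TCF factor, with 15.97 sites per Mb. Chemoreceptor genes were flanked in 14 of 533 cases, or 2.63% (interval 1.57 to 4.36), with 13.5 sites per Mb. F-box genes were flanked in 2 of 110 with 5.38 sites per Mb, and C-type lectin genes in 4 of 77 with 19.5. None of 56 neuropeptide and insulin-like genes was flanked, which allows a share of up to 6.42%. Ribosomal protein genes were flanked in 3 of 9 cases, or 33.3% (interval 12.1 to 64.6), with 85.6 sites per Mb. Histone genes were flanked in 1 of 5, or 20.0% (interval 3.62 to 62.4), with 39.7 sites per Mb.

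Short motifs were more frequent at distal summits than at flanks. The motifs were chosen with earlier results of these data known, so a higher share at summits is not an independent finding. GAGAGA lay within 50 bp of 165 summits, or 30.5% (interval 26.8 to 34.5), and within 50 bp of 34 positions taken 500 bp downstream, or 6.28%; 5.57% of eligible positions and 24.6% of all nuclear summits have it so near. In the replicates' own distal sites the share was 30.3%, 29.7% and 29.3% at summits, and 5.47% ± 0.723 at flanks, so summits were higher in 3 of 3 (exact sign-flip permutation test, two-sided, p = 0.25, the smallest possible). GACGCA, a word chosen because it was common at all summits of the series, lay near 60 summits or 11.1%, beside 2.59% of flanks, 2.04% of eligible positions and 11.9% of all nuclear summits.

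The half-site CAAGGTCA lay within 50 bp of 6 summits, or 1.11% (interval 0.509 to 2.40), and of no flank, beside 0.128% of eligible positions and 1.08% of all nuclear summits. In the replicates it was 1.55%, 0.760% and 1.32% at summits and 0.0630% ± 0.109 at flanks, higher in 3 of 3 (exact sign-flip permutation test, two-sided, p = 0.25, the smallest possible).  The site between snt-1 and egl-27 and those at sre-2, Y69E1A.8 and Y56A3A.33 had signals of 572, 318, 316 and 286 and were supported in all 3 replicates. Those at C08H9.15 and Y37E3.30 had 160 and 116 and were each supported in 2. Its core AGGTCA, which these 6 sites also count, lay near 45 summits or 8.32%, against 3.14% of flanks, 2.65% of eligible positions and 6.56% of all nuclear summits.

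The E-box CACGTG, bound by basic helix-loop-helix factors, lay near 30 summits or 5.55%, against 1.85% of flanks and 1.36% of eligible positions, with 5.88% of all nuclear summits. TTTCNCTTT, a BLMP-1-type motif, lay near 28 or 5.18%, against 1.85% of flanks and 1.84% of eligible positions, with 3.96% of all nuclear summits. The GATA motif TGATAA lay near 68 or 12.6%, against 9.24% of flanks and 8.73% of eligible positions, with 9.15% of all nuclear summits. AACCGGTT, the Grainyhead motif, lay near 4 and at no flank, which is 0.739% beside 0.0930% of eligible positions and 1.08% of all nuclear summits. All motifs were searched on both strands, and a match describes the sequence only.

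**Figure D5:**
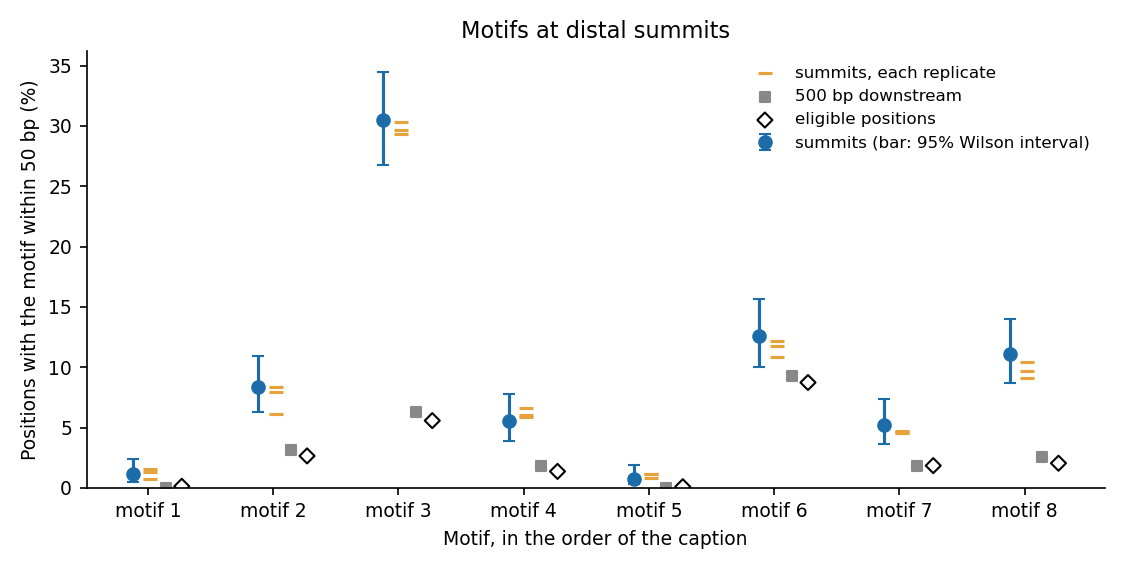
Share of positions with each motif within 50 bp (vertical axis, percent) for distal summits with 95% Wilson intervals, each replicate's own distal summits, positions 500 bp downstream and all eligible positions. Motifs 1 to 8 are the half-site, its core, the GA repeat, the E-box, the Grainyhead motif, the GATA motif, the BLMP-1-type motif and GACGCA; the GA repeat stands highest, at 30.5% of summits and 6.28% of flanks.

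Among distal sites those with GAGAGA had a median signal of 224, and those without it 168. Support in all 3 replicates was found for 108 of 165 with the motif and 188 of 376 without. In 5 equal classes of the 541 sites by signal, 44.0%, 38.9%, 24.1%, 18.5% and 26.9% had it, so the share was highest in the strongest sites and did not fall evenly. Sites with GACGCA had a median signal of 210 and were supported in all 3 replicates in 43 of 60 cases. Those without it had a median of 175 and were supported in 253 of 481. Sites with TGATAA had a median of 173 and were supported in 34 of 68, near the values of those without it, 179 and 262 of 473.

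Between classes of site, GAGAGA did not keep 1 order. In the reproducible list it lay near 32.2% of summits far inside gene bodies, above the 30.5% of distal summits, and near 24.3% of autosomal summits within 2000 bp of a start and 18.1% of distal summits on the X. In each replicate's own regions it was found at 29.8% ± 0.502 of distal summits, 21.1% ± 0.203 of autosomal summits within 2000 bp of a start, 25.1% ± 1.84 of those far inside gene bodies and 19.2% ± 1.92 of distal summits on the X (SD, n = 3). The distal share was higher by 9.35, 8.31 and 8.20 percentage points than near starts, by 6.99, 2.68 and 4.14 than in gene bodies, and by 9.88, 12.7 and 9.11 than on the X, in 3 of 3 replicates each time (exact sign-flip permutation test, two-sided, p = 0.25, the smallest possible). TGATAA was found at 11.6% ± 0.657 of autosomal distal summits and 5.96% ± 0.261 of those on the X, a difference of 5.63 points. Near starts it was found at 9.20% ± 0.190, below the distal share in 3 of 3 replicates. Far inside gene bodies it was found at 11.15% ± 1.53, and the distal share was higher in only 1 of 3. GACGCA went the other way against start sites, at 9.75% ± 0.692 of distal summits and 12.6% ± 0.872 near starts, lower in 3 of 3 replicates. The distal share of GACGCA was higher than the 6.90% ± 1.39 far inside gene bodies and the 5.80% ± 0.534 on the X, in 3 of 3 each. With 27 such comparisons of motifs and masking and a smallest p of 0.25, which adjustment can only raise, none can pass a threshold of 0.05.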

How the data were processed

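The authors immunoprecipitated chromatin bound by tagged NHR-25 from 3 biological replicates, per the labels, which record sonication for replicate 3 and sizes of 150 to 350 for the others. The aligner and the peak caller are not named in the labels or files. The authors called regions in every replicate and in the pool against a shared control, 30000 per list, and the optimal list holds those that passed a reproducibility threshold, per the note deposited with the files. The control was not analysed here.

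The signal of a region is the authors' own value, its scaling not stated, and was used to rank regions within a list. The −log10 q-value deposited beside it reaches its maximum in 3849 of the 4548 optimal regions and was not used. The deposited summit offset, in bases, gave each region's other measure, its summit. The ce10 lists were not used, since the gene models are of the ce11 assembly.

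Gene models came from Ensembl release 115 and sequence from RefSeq. Coordinates are 1-based. For 205 genes whose Ensembl name is shared, the RefSeq symbol was used. Eligible sequence is every autosomal base that meets the rule for a distal site, and its shares were counted base by base. Replicate shares were tested by exact sign flips over the 3 replicates, two-sided, and 95% Wilson intervals cover counting error only and treat sites as independent, which overlapping and clustered ones are not. The replicates form 1 group, so p-values measure the spread between these libraries alone. Distances, clusters (at least 3 summits, 5000 bp) and motif windows (50 bp) are as printed. Named genes flank the 15 strongest recurrent sites, the 5 largest clusters, the half-site sites, up to 3 sites per non-coding class, the sites at the distance limit and up to 3 genes per list by signal; the other intervals, genes and microRNA counts were picked after their values were seen. Members, motifs and the 15 gene lists were chosen with earlier results of these data known. Programs (Python 3.11.15, numpy 2.4.6, pandas 2.3.3, scipy 1.17.1, matplotlib 3.10.9) were tested on simulated data. Alternatives are given in the closing section.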

Additional observations from a re-analysis of the deposited data

How the results depend on the processing

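With 687 sites over 1500 bp from every start, 540 with the starts of every transcript and 526 after merging overlapping regions, the count stayed within 1.5 times of 541, but it was 310 over 3000 bp and 255 in the 2274 optimal regions of highest signal. The 54.7% recurrence was 29.4% with 0.5 times and 81.9% with 2 times as many regions per replicate, 34.9% with overlap of at least 50% of both regions, 45.7% with summits within 100 bp and 90.6% in those 2274; without each replicate it ranged from 62.8% to 64.9%, since fewer replicates must hold the site. Other autosomal sites moved alike, to 31.7%, 83.1%, 33.2% and 46.8% under the first 4. The distal share of each replicate's strongest regions kept between 14.3% and 14.6% under all 5 alternatives run. The half-site share was 2.40% within 100 bp, against 1.11%, and ranged from 1.18% to 1.44% without each replicate. The non-coding share was 20.5% within 200 bp, 30.5% within 1000 bp and 31.1% with piRNA genes counted, against 5.69%, 15.5% and 21.3% of eligible sequence, and from 25.6% to 27.1% without each replicate. The clustered share of 26.2% was 12.2% in those 2274, 15.7% with gaps of at most 2000 bp and 32.0% with 10000 bp, and 16.4% to 17.9% without each replicate, where fewer sites remain. Merging overlapping regions, an alternative chosen after seeing the data, gave 53.6%, 1.14%, 23.95% and 26.2% for recurrence, half-site, non-coding and clustered sites. Leaving out a replicate meant keeping sites that both others support, as remaking the optimal list was not possible. Samples could not be paired across groups, because the replicates form a single group. The sign-flip tests used differences within each replicate. These were between classes of site, between summits and flanks, or from the fixed share of eligible sequence. Depth is unknown, which leaves signals and ranks without a counting error. Width, signal scaling and the control limit every list alike and were not varied.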
